A study of Mus musculus with 7 samples.

Results

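The genes described here encode the respiratory chain of mitochondria, and they were chosen by symbol: symbols that begin with Nduf, Uqcr, Cox4 to Cox8 or Atp5, together with Sdha, Sdhb, Sdhc and Cyc1. The rule found 93 genes among 14641, and all 93 had enough reads to be tested. Of these, 81 encode subunits: 36 of complex I, 3 of complex II, 8 of complex III, 17 of complex IV and 17 of complex V. The others are 8 assembly factors of complex I, 2 near-identical copies of Ndufb4, and the paralogs Cox7a2l and Ndufa4l2, which are not counted as subunits. The 13 subunits that mitochondrial DNA encodes had no row in the table and were not analysed here, nor was Sdhd of complex II. Ndufb1 of complex I and Uqcr11 of complex III are not among the 93 genes either.

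The series compared cardiac tissue of male mNrf2-TG mice (C57/Bl6J background) with that of non-transgenic (NTG) littermates. In the mNrf2-TG line an αMHC promoter drives mouse Nrf2 of full length. The series asked what moderate extra Nrf2 does to the myocardium. There were 4 NTG libraries (replicates 1 to 4) and 3 mNrf2-TG libraries (replicates 17 to 19), 1 per mouse, so p-values measure the spread between mice. The transgenic samples are labelled 6 months of age, the series design gives 7 to 8 months and the methods 6 to 7 months for both groups. No other allele, agent or treatment is named for either group, and the αMHC promoter acts in cardiomyocytes and not in the other cells of the heart.

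The respiratory chain passes electrons from NADH (complex I) and succinate (complex II) through coenzyme Q to complex III, through cytochrome c to complex IV, and on to oxygen. Complexes I, III and IV pump protons out of the matrix, and complex V, the ATP synthase, lets them back in to make ATP. Each complex has a catalytic core and accessory subunits around it, and assembly factors build it without staying in the finished enzyme. Heart muscle beats without rest and carries one of the highest contents of these complexes of any tissue, and complex IV has isoforms of its own there.

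Between 6534684 and 8405857 reads per library fell on listed genes, and the 93 genes took 5.28% to 5.77% of them. Nfe2l2, which encodes Nrf2, rose from 148 ± 37.4 to 1525 ± 87.3 CPM (mean ± SD; n = 4 NTG and n = 3 mNrf2-TG here and below; Log2FC 3.36 ± 0.18, adjusted p = 2.96e-06). CPM are counts scaled to a common library total by TMM, Log2FC is the log2 fold change of mNrf2-TG over NTG with its standard error, and a gene was called when edgeR's quasi-likelihood test gave a Benjamini-Hochberg adjusted p under 0.05 over all 14637 genes tested. Marker genes of several cell types differed as well. All 12 cardiomyocyte markers were detected, their summed level was 112084 to 119194 CPM in NTG and 97534 to 101350 CPM in mNrf2-TG hearts, and 4 (Tnni3, Myl2, Myl3 and Pln) were called lower and 0 higher. Of 8 fibroblast markers 5 were higher, with sums of 1172 to 1526 CPM in NTG and 1702 to 1808 CPM in mNrf2-TG, and of 8 macrophage and leukocyte markers 4 were higher, with sums of 149 to 210.4 and 246 to 349 CPM. Of 8 endothelial markers 2 were lower (Pecam1 and Cdh5) and 1 higher (Kdr), with sums of 924 to 1005 CPM in NTG and 876 to 906 CPM in mNrf2-TG. Of 8 skeletal muscle markers 2 were lower (Myh1 and Myh4) and 0 higher, with sums that overlapped, at 86.3 to 166 and 57.8 to 89.3 CPM. Of 8 smooth muscle and pericyte markers 1 was lower (Rgs5) and 0 higher, with sums of 1156 to 2287 and 1663 to 2159 CPM. Acta2 of this list had 7707 counts in NTG 3, 893 to 1894 in the other NTG libraries and 6026 to 8693 in mNrf2-TG. It was not called (Log2FC 1.37 ± 0.63, adjusted p = 0.163). Tagln, Myh11 and Cnn1 of the same list had Log2FC of -0.19 to -0.10 and were not called. Of 3 atrial markers tested Nppa, which encodes atrial natriuretic peptide, was higher (Log2FC 1.47 ± 0.28, adjusted p = 0.00728) and 0 were lower. The sums of these 3 were 91.0 to 192 CPM in NTG and 269 to 517 CPM in mNrf2-TG hearts, mostly from Nppa, and Myl7 had 0 to 4 counts per library. Of 4 adipose and 5 red blood cell markers tested none was called, with sums of 25.8 to 36.2 and 22.9 to 28.5 CPM and of 314 to 506 and 200.3 to 465 CPM. None of the tested markers in these 9 lists was at 0 in all libraries. What part these markers had in the respiratory chain results was not tested, and in whole tissue fewer cells of a type cannot be told apart from less RNA per cell.

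In mNrf2-TG hearts 9 of the 93 respiratory chain genes rose, 29 fell and 55 were not called. These counts moved with single libraries: leaving out 1 library gave 4 to 10 genes higher and 16 to 30 lower. The higher genes numbered 5 without NTG 1, 5 without NTG 4 and 4 without mNrf2-TG 17, and the lower genes 19 without NTG 1, 17 without NTG 2, 16 without mNrf2-TG 18 and 19 without mNrf2-TG 19. Over all genes the same fits made 1373 to 2950 calls. The called share was 40.9%, beside 17.2% of all genes tested (8.48% higher and 8.73% lower). Abundant genes are called more often, and among the 1735 genes with a mean of at least 100 CPM the share was 34.3% (13.7% higher and 20.6% lower), beside 39.7% for the 73 respiratory chain genes at that level (7 higher, 22 lower). The median Log2FC was -0.11 over the 93 genes, 0.00 over all genes and -0.06 over all genes at 100 CPM or more. The CPM of the groups did not overlap for 57 of the 93 genes (61.3%), beside 29.7% of all genes and 48.0% of the abundant ones. The shifts were small: outside Ndufa12 and the barely detected Cox6b2 and Cox7a2, every Log2FC lay between -0.65 and 0.79.

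**Figure D1:**
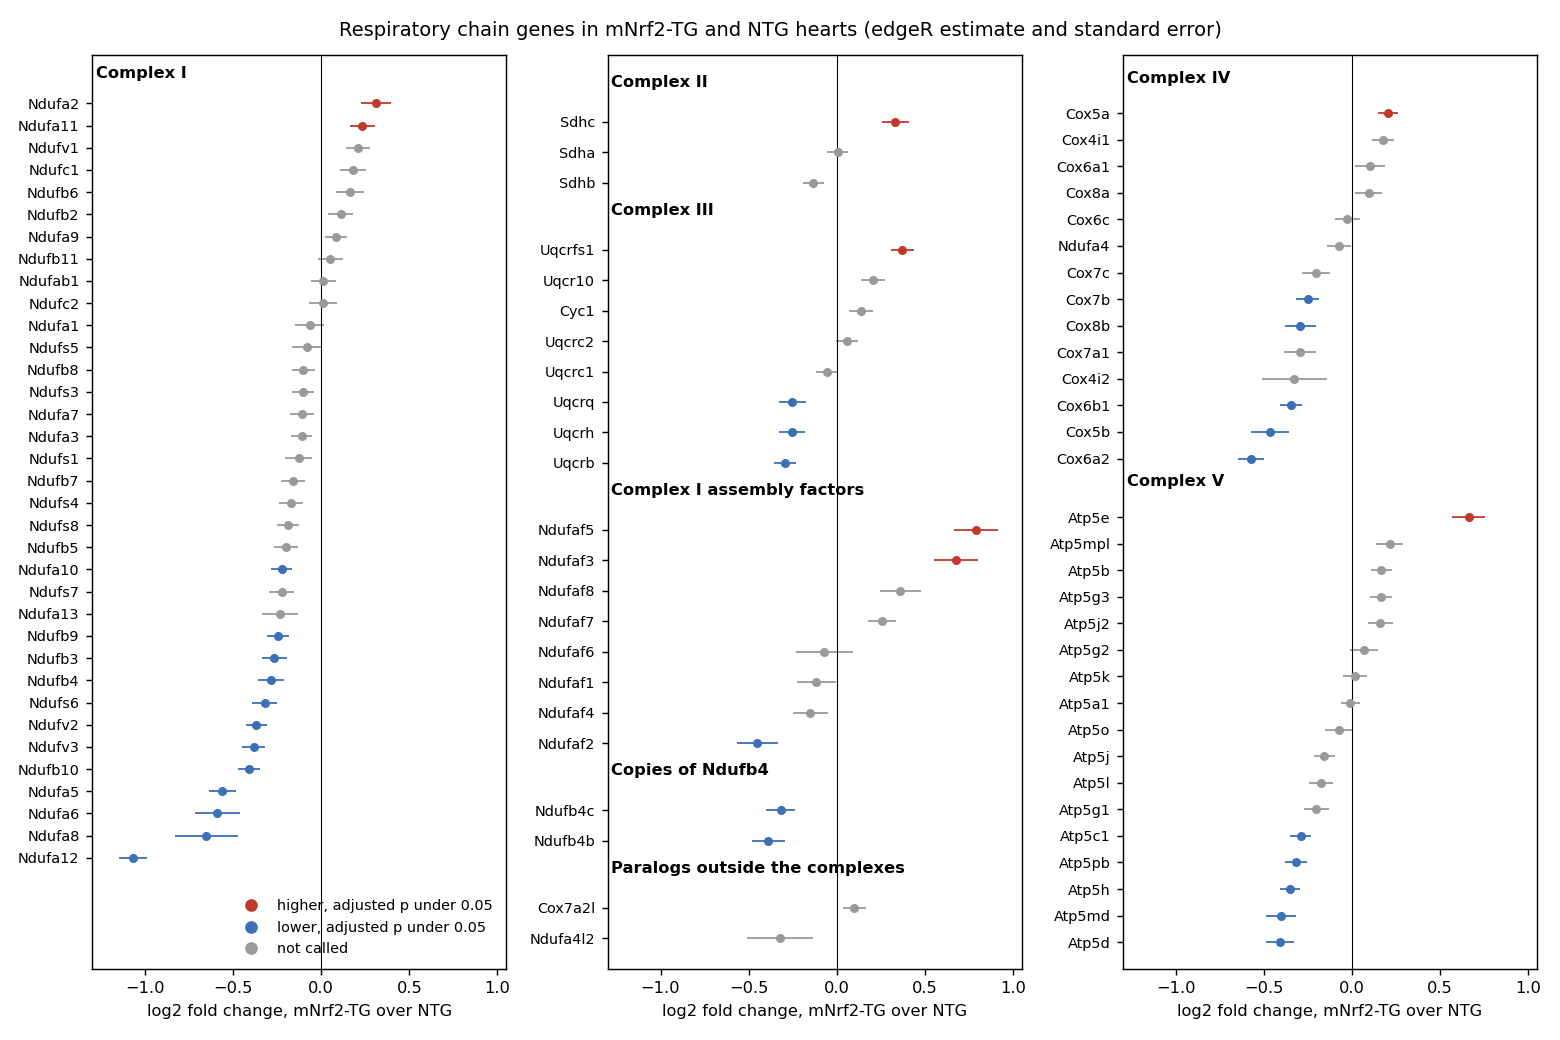
Log2FC of mNrf2-TG over NTG (x axis, log2 scale) for the respiratory chain genes described here, grouped by complex, with the standard error as a horizontal bar; red genes were called higher, blue genes lower and grey genes were not called. Cox6b2, Cox7b2 and Cox7a2, with under 3 CPM in NTG hearts, are left out. Every complex has calls in red, and complexes I, III, IV and V have calls in blue as well, with Ndufa12 (-1.07) the lowest gene drawn and Ndufaf5 (0.79) the highest.

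Promoter sequences are shown for the assembly factors that rose, for the complex V subunit that rose and for Ndufa12, because these had the largest rises and, among genes with more than a few counts, the largest fall. Each runs 5′ to 3′ from 250 bases before to 50 bases after the transcription start (RefSeq, GRCm38.p6). Capitals mark a match to the antioxidant response element core TGACNNNGC that Nrf2 binds with small Maf proteins, to the 10-base palindrome of NRF1, to the ETS site CCGGAAG or to the ERR site TCAAGGTCA, on either strand; NRF1, GABPA of the ETS family and ERR are known regulators of respiratory genes. A match is a stretch of letters and not evidence of binding.
Ndufaf3, chr9:108567387-108567686, minus strand: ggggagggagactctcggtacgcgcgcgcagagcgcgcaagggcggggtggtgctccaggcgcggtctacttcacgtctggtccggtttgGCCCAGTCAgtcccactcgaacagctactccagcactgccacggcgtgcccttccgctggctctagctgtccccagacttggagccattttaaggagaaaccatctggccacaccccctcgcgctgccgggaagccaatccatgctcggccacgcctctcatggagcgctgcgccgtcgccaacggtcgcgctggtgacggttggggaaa
Ndufaf5, chr2:140170396-140170695, plus strand: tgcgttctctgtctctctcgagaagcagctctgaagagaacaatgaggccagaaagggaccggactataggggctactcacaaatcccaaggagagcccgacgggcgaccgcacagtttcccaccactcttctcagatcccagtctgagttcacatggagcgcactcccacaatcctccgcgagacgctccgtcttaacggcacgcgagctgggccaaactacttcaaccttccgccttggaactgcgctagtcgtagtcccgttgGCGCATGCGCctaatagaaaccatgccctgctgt
Atp5e, chr2:174464052-174464351, minus strand: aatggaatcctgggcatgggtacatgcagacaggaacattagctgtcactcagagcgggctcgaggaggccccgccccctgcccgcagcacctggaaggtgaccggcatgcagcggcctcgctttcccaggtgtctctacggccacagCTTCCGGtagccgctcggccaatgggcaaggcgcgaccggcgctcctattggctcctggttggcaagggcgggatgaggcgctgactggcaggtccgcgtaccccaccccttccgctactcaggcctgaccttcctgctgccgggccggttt
Ndufa12, chr10:94198785-94199084, plus strand: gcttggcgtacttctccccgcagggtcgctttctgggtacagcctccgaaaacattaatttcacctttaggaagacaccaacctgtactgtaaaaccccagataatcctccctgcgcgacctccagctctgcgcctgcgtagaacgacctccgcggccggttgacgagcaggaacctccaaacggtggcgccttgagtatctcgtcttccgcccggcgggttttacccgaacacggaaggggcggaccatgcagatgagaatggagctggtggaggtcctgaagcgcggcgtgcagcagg
In the Ndufaf3 promoter the capitals are an antioxidant response element core (GCCCAGTCA on the strand shown) that begins 160 bases before the start. In Ndufaf5 they are an NRF1 site that begins 17 bases after the start, and in Atp5e an ETS site (CTTCCGG as shown) that begins 102 bases before it. The Ndufa12 window held none of the 4 motifs.

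A promoter was at hand for 75 of the 93 genes (80 windows, since a gene can have several starts; each gene counts once). The antioxidant response element core was found in 11 of them (14.7%), beside 16.7% of the table's genes and 14.0% of all genes with a promoter. Among genes called higher 2 of 6 had it (Ndufaf3 and Ndufa11), among those called lower 3 of 24 (Ndufv2, Ndufa10 and Cox5b), and among those not called 6 of 45. The NRF1 site was in 7 of 75 (9.33%), beside 2.06% of the table's genes and 1.07% of all, and it lay in 2 of the 6 called higher (Ndufaf5 and Ndufa11) and 0 of the 24 called lower. The ETS site was in 17 of 75 (22.7%), beside 17.9% and 9.93%, and the ERR site in Atp5g3 alone, beside 0.308% and 0.466%. No match of one motif overlapped a match of another in these windows. With 6 genes higher, these shares are descriptions.

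Complex I takes electrons from NADH and is the largest of the complexes. Of its 36 subunits 41.7% were called, beside 34.3% of all genes at 100 CPM or more and 17.2% of all genes tested. Some of the 36, among them the called Ndufa12, Ndufa6 and Ndufa8, lay under 100 CPM. Among the 36 subunits 12 were lower, 3 were higher and 21 were not called, with a median Log2FC of -0.14. Their summed level was 13515 to 14364 CPM in NTG hearts and 12390 to 13511 CPM in mNrf2-TG hearts, a mean difference of -5.71% between groups that only just did not overlap. The lower calls lay in both arms. In the arm that reaches into the matrix 6 of 16 subunits were lower and 2 higher (median -0.18), and in the arm in the inner membrane 6 of 19 were lower and 1 higher (median -0.11). Within the matrix arm, 5 of the 9 accessory subunits were lower and 1 higher, with a median of -0.32, whereas the 7 core subunits had a median of -0.13. Ndufab1, the acyl carrier protein that sits in both arms, was not called (Log2FC 0.01 ± 0.07, adjusted p = 0.93).

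Ndufa12, an accessory subunit at the matrix arm, had the largest fall of the subunits with more than a few counts. Ndufa12 gave 78.5, 79.6, 78 and 71.3 CPM in NTG 1 to 4 and 38.9, 36.8 and 34.4 CPM in mNrf2-TG 17 to 19. The groups lay far apart, and the highest transgenic heart was far below the lowest NTG heart. Ndufa12 (chromosome 10, 94198720 to 94221443, plus strand, GENCODE M21 on GRCm38) thus fell by 52.3% (Log2FC -1.07 ± 0.08, adjusted p = 4.03e-05). Of its 50-base stretches 17.7% occur elsewhere, mostly in the processed pseudogene Gm15920, so some of its reads could have been placed there or from there. Ndufa5 gave 439.6, 471, 420.3 and 464 CPM in NTG 1 to 4 and 297, 281 and 334 CPM in mNrf2-TG 17 to 19. This accessory subunit (chromosome 6, 24518666 to 24528013, minus strand), which shares no such stretch with another gene, fell by 32.2% in the fit, with 3 of 3 transgenic hearts below the NTG range (Log2FC -0.56 ± 0.079, adjusted p = 0.00175).

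The other lower subunits of the matrix arm were Ndufv2, Ndufv3, Ndufs6 and Ndufa6. Ndufv2 gave 908, 868, 886 and 872 CPM in NTG 1 to 4 and 712, 661 and 682 CPM in mNrf2-TG 17 to 19. Ndufv2, a core subunit that carries an iron-sulfur cluster in the NADH-oxidizing module, was separated from NTG by more than the spread of either group (Log2FC -0.37 ± 0.059, adjusted p = 0.00361). Ndufv3, a small accessory subunit of the same module, went from 304 ± 4.95 to 233 ± 13.7 CPM (Log2FC -0.38 ± 0.065, adjusted p = 0.00474). Ndufs6, a zinc-binding accessory subunit, went from 337 ± 14.7 to 269.7 ± 19.2 CPM (Log2FC -0.32 ± 0.073, adjusted p = 0.0151). Ndufa6 was scarce, at 16.9 ± 0.773 to 11.2 ± 1.69 CPM (Log2FC -0.59 ± 0.13, adjusted p = 0.0127). The lower genes of this arm thus ran from scarce to abundant.

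Ndufv1, which binds NADH and its flavin, had a Log2FC of 0.21 that missed the threshold (adjusted p = 0.0597). The iron-sulfur subunits Ndufs1, Ndufs7 and Ndufs8 and the subunit Ndufs3 had Log2FC between -0.22 and -0.10, and none was called (adjusted p from 0.0598 to 0.297). Ndufa2, an accessory subunit of this arm, rose from 139 ± 9.81 to 173 ± 15.6 CPM (Log2FC 0.31 ± 0.085, adjusted p = 0.0329).

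In the membrane arm, Ndufb10 gave 534, 569, 513 and 538 CPM in NTG 1 to 4 and 402, 404 and 410.4 CPM in mNrf2-TG 17 to 19. Ndufb10, an accessory subunit (chromosome 17, 24722060 to 24724478, minus strand), fell by 24.7% and its transgenic values were close to one another (Log2FC -0.41 ± 0.062, adjusted p = 0.0027). Ndufa10 went from 759 ± 31.7 to 649.7 ± 2.63 CPM (Log2FC -0.22 ± 0.061, adjusted p = 0.0313). Ndufb9 went from 669 ± 31.9 to 565 ± 13.5 CPM (Log2FC -0.24 ± 0.063, adjusted p = 0.0263), and it shares 201 exon bases with Gm49356 on the same strand. Ndufb3 (Log2FC -0.27 ± 0.072, adjusted p = 0.032), Ndufb4 (Log2FC -0.28 ± 0.074, adjusted p = 0.0263) and Ndufa8 (Log2FC -0.65 ± 0.18, adjusted p = 0.0337) were also lower, the last at 19.1 CPM in NTG hearts. The copies Ndufb4b (Log2FC -0.39 ± 0.095, adjusted p = 0.0209) and Ndufb4c (Log2FC -0.32 ± 0.083, adjusted p = 0.0278) were lower as well. However, every 50-base stretch of Ndufb4c also occurs in Ndufb4 or another gene, and for Ndufb4b shared stretches were not counted. As near-identical copies, these 3 genes may share reads, and their calls may not be independent. Ndufa11, an accessory subunit, rose from 211 ± 7.72 to 248 ± 16.8 CPM (Log2FC 0.23 ± 0.07, adjusted p = 0.0472).

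Single libraries decided several of the complex I calls. With any 1 of the 7 libraries left out, Ndufa12, Ndufa5, Ndufb10, Ndufv2, Ndufv3 and Ndufa6 kept an adjusted p under 0.05. The call on Ndufs6 was lost without mNrf2-TG 18 (adjusted p = 0.0584), and that on Ndufb4b without mNrf2-TG 18 or 19 (up to 0.0697). Ndufa2 was called only without NTG 2, NTG 3 or mNrf2-TG 18 (otherwise up to 0.115), Ndufa8 only without NTG 3, NTG 4 or mNrf2-TG 17 (0.119) and Ndufb4 only without NTG 1, NTG 3 or mNrf2-TG 17 (0.0895). Ndufa10 and Ndufb9 were called only without NTG 3 or NTG 4 (0.101 and 0.0877), Ndufb3 and Ndufb4c only without NTG 3 or mNrf2-TG 17 (0.11 and 0.0983), and Ndufa11 only without NTG 3 or mNrf2-TG 18 (0.146). All of them kept their direction.

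Complex II links the citric acid cycle to the chain. It was represented by 3 subunits, of which 1 was called (33.3%, beside 34.3% of all genes at 100 CPM or more). Sdhc gave 508, 485, 563 and 508 CPM in NTG 1 to 4 and 698, 601 and 649 CPM in mNrf2-TG 17 to 19. Sdhc, which anchors the enzyme in the membrane and helps bind coenzyme Q, was higher in each transgenic heart than in any NTG heart and rose by 25.9% (Log2FC 0.33 ± 0.076, adjusted p = 0.0164; chromosome 1, 171127165 to 171150603, minus strand). That call was lost without mNrf2-TG 17 (adjusted p = 0.0709). Sdha, the flavoprotein that oxidizes succinate, had 2494 ± 122 to 2503 ± 7.76 CPM (Log2FC 0.01 ± 0.06, adjusted p = 0.963). Sdhb, the iron-sulfur subunit, had 1063 ± 16.9 to 969 ± 47.1 CPM (Log2FC -0.13 ± 0.06, adjusted p = 0.156). The summed level of the 3 genes overlapped between the groups, with 3883 to 4188 CPM in NTG and 4021 to 4220 CPM in mNrf2-TG hearts.

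Complex III passes electrons from coenzyme Q to cytochrome c. Of its 8 subunits 1 was higher and 3 were lower (50.0% called, beside 34.3% of all genes at 100 CPM or more). The median Log2FC was 0.26 over the catalytic subunits, 0.00 over the 2 core proteins and -0.25 over the 4 small subunits. Uqcrfs1 gave 824, 845, 802 and 799.7 CPM in NTG 1 to 4 and 1128, 973 and 1077 CPM in mNrf2-TG 17 to 19. Uqcrfs1, the Rieske iron-sulfur protein, rose by 29.6% with no overlap between the groups (Log2FC 0.37 ± 0.067, adjusted p = 0.00584; chromosome 13, 30540308 to 30545362, minus strand). Cyc1, cytochrome c1, had 876 ± 25.3 to 965 ± 76.9 CPM and was not called (Log2FC 0.14 ± 0.069, adjusted p = 0.194). The core proteins Uqcrc1 (Log2FC -0.05) and Uqcrc2 (0.06), which build the matrix side, were not called either, with adjusted p of 0.609 and 0.544.

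All 4 small subunits of complex III among the 93 genes had groups that did not overlap, beside 48.0% of all genes at 100 CPM or more. Of these 4 subunits 3 went downward and 1 upward. Uqcrb gave 372, 363, 366 and 374 CPM in NTG 1 to 4 and 305, 310.4 and 287 CPM in mNrf2-TG 17 to 19. Uqcrb was the tightest of them (Log2FC -0.29 ± 0.061, adjusted p = 0.0107), and 25.4% of its 50-base stretches occur in other genes, mostly the processed pseudogene Gm16089. Uqcrh, the hinge protein that meets cytochrome c1, went from 766 ± 45.5 to 642 ± 38.9 CPM (Log2FC -0.25 ± 0.072, adjusted p = 0.0374). Uqcrq went from 596 ± 16.4 to 500.1 ± 50.6 CPM (Log2FC -0.25 ± 0.077, adjusted p = 0.0497). Uqcr10 had 309.6 ± 11.1 to 357 ± 22.9 CPM and was not called (Log2FC 0.21 ± 0.068, adjusted p = 0.0655). Uqcrfs1 and Uqcrb were called whichever library was left out, whereas Uqcrh was called only without NTG 3 (otherwise up to 0.127) and Uqcrq only without NTG 3 or mNrf2-TG 19 (0.153). With the rise of Uqcrfs1 and the falls of the small subunits, the summed level of the complex overlapped between the groups (6478 to 6686 CPM in NTG and 6292 to 6911 CPM in mNrf2-TG).

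Complex IV, cytochrome c oxidase, hands the electrons to oxygen. In the main fit it had the lowest median of the complexes, -0.21, with 6 of 17 subunits lower and 1 higher. Leaving out 1 library moved this median between -0.25 and -0.14 and that of complex I between -0.17 and -0.13, so these ranges overlapped. Some complex IV subunits, among them the called Cox6b2, lay under 100 CPM. The called share in complex IV was 41.2%, beside 34.3% of all genes at 100 CPM or more and 17.2% of all genes tested. Its summed level was 9721 to 10184 CPM in NTG hearts and 8181 to 9256 CPM in mNrf2-TG hearts, a mean difference of -12% with no overlap, beside -13.5% for the summed cardiomyocyte markers. Ndufa4 is counted here because its protein belongs to complex IV and not to complex I as the symbol says, and it was not called (Log2FC -0.07 ± 0.069, adjusted p = 0.506). In the plot of summed levels, complex IV is the one whose groups lie furthest apart.

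**Figure D2:**
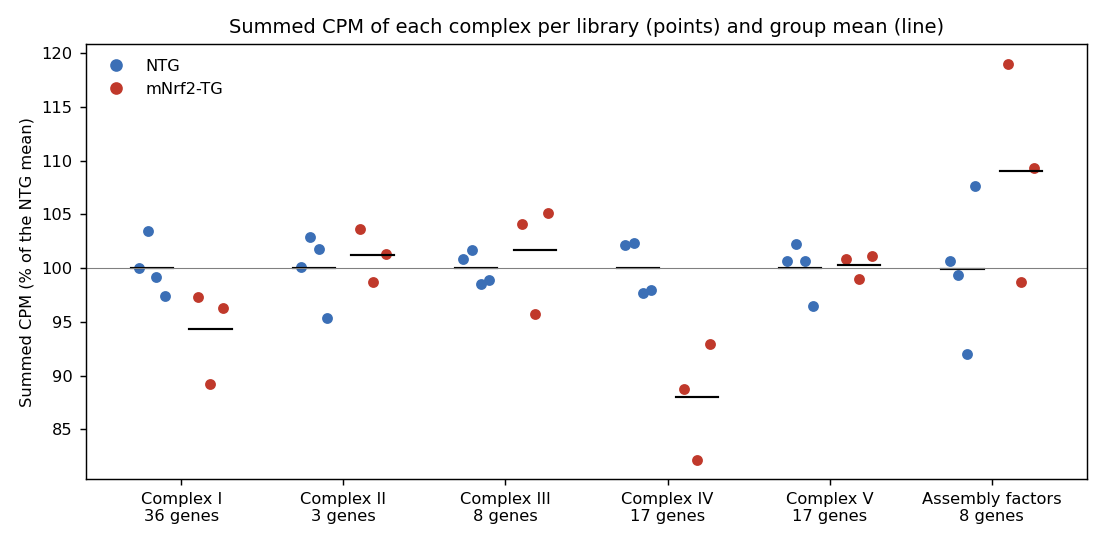
Summed CPM of the genes of each complex in each library (y axis, percent of the NTG mean of that complex; points are libraries, lines are group means, blue NTG and red mNrf2-TG). The red points lie below all blue points for complex I and complex IV, and the groups overlap for complexes II, III and V and for the assembly factors.

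Cox6a2, the heart and skeletal muscle isoform of a subunit near the dimer contact, was the most abundant complex IV gene per length. Cox6a2 gave 2044, 1841, 1821 and 1854 CPM in NTG 1 to 4 and 1201, 1230 and 1375 CPM in mNrf2-TG 17 to 19. The transgenic hearts lay well below the NTG hearts, and Cox6a2 (chromosome 7, 128205435 to 128206387, minus strand) fell by 32.9% (Log2FC -0.58 ± 0.073, adjusted p = 0.001). The skeletal muscle markers summed to 86.3 to 166 CPM in NTG and 57.8 to 89.3 CPM in mNrf2-TG hearts, with overlapping groups. Their mean sum differed by -37.7%, mostly from Myh1 and Myh4. Of the same list, Myh2 had a Log2FC of 1.37 and was not called, and Mylpf had 1 to 8 counts per library. What part these markers had in the Cox6a2 result was not tested. The other muscle isoforms had Log2FC nearer to 0. Cox8b went from 637 ± 20.1 to 519.9 ± 69.8 CPM (Log2FC -0.29 ± 0.089, adjusted p = 0.0488), and Cox7a1 from 711 ± 42.7 to 579 ± 71.2 CPM, which did not pass the threshold (Log2FC -0.30 ± 0.091, adjusted p = 0.0501).

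Among the complex IV subunits on either face of the membrane, Cox5b gave 549, 585, 536 and 495 CPM in NTG 1 to 4 and 415, 322 and 439 CPM in mNrf2-TG 17 to 19. Cox5b, a zinc-binding subunit on the matrix side, varied more among transgenic hearts than most members, with mNrf2-TG 18 lowest (Log2FC -0.46 ± 0.11, adjusted p = 0.0164), and 11.9% of its 50-base stretches occur in other genes. Its partner on the matrix side, Cox5a, went the other way, from 715 ± 16.4 to 823 ± 27.1 CPM (Log2FC 0.20 ± 0.058, adjusted p = 0.0388). Cox7b went from 1087 ± 29.9 to 913 ± 52.7 CPM (Log2FC -0.25 ± 0.064, adjusted p = 0.0237). Cox6c (Log2FC -0.03) and Cox7c (Log2FC -0.21 ± 0.079, adjusted p = 0.101) were not called. Cox6b1 gave 1001, 989, 933 and 957 CPM in NTG 1 to 4 and 750.5, 731 and 809 CPM in mNrf2-TG 17 to 19. Cox6b1, the subunit on the side where cytochrome c docks, fell by 21.3% (Log2FC -0.35 ± 0.063, adjusted p = 0.00654; chromosome 7, 30616861 to 30626151, minus strand). Cox6a2, Cox6b1 and Cox6b2 were called whichever library was left out. Cox5b lost its call without NTG 2 (0.0525), Cox7b was called only without NTG 3 or NTG 4 (otherwise up to 0.0886), Cox8b only without NTG 3 or mNrf2-TG 19 (0.138) and Cox5a only without NTG 3 (0.12).

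**Figure D3:**
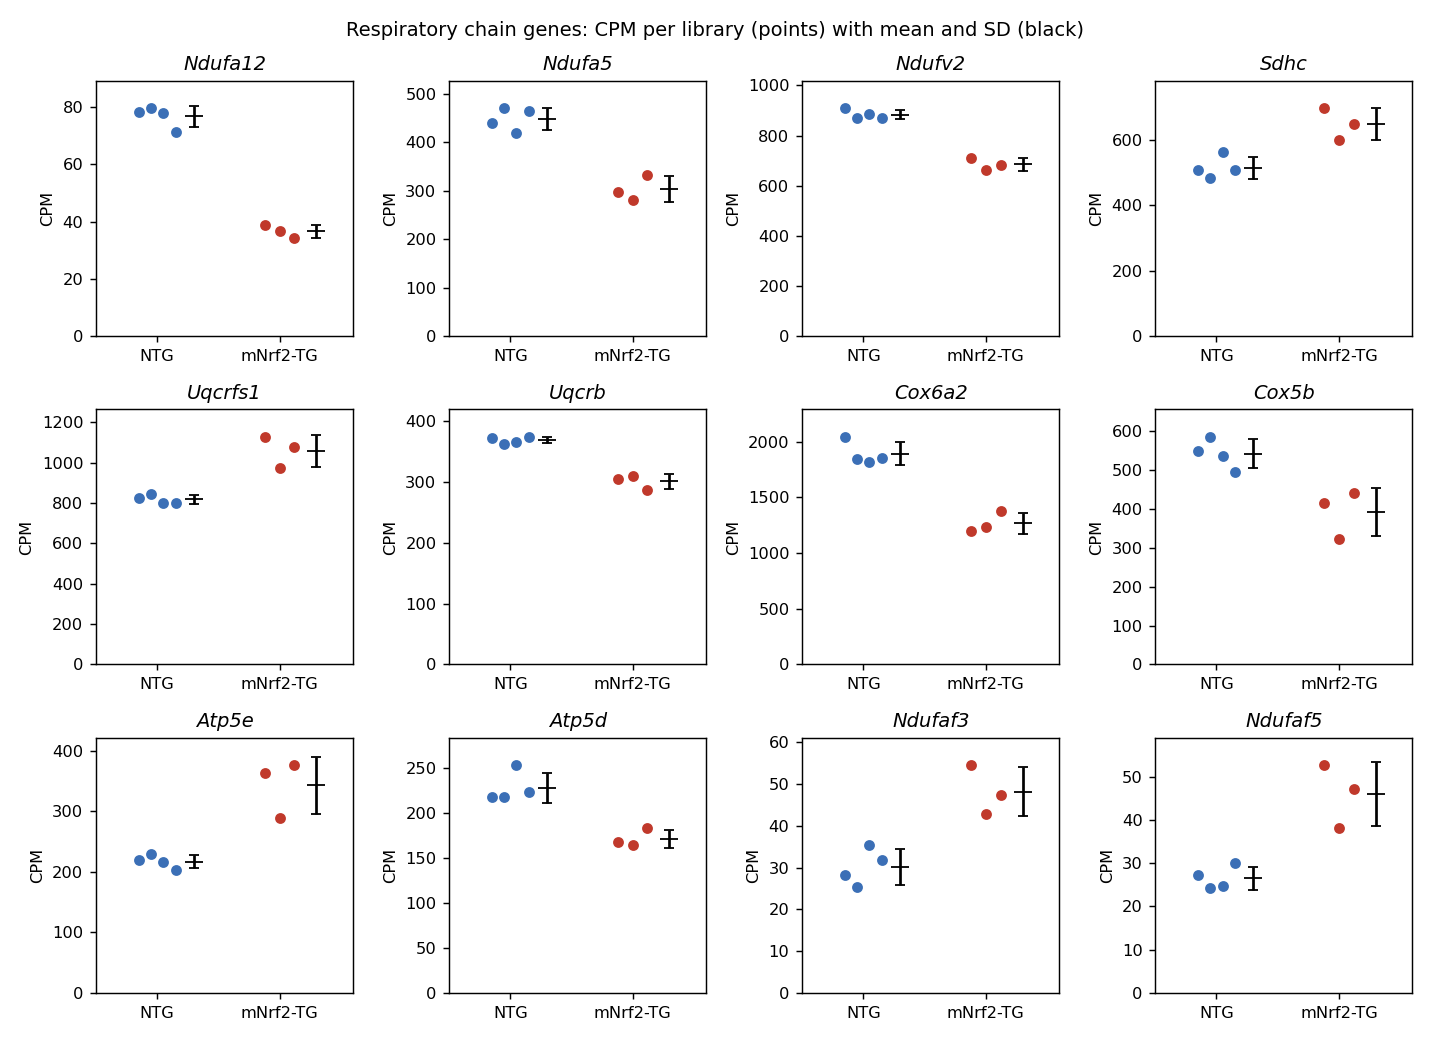
CPM per library (y axis, linear and starting at 0; blue NTG, n = 4; red mNrf2-TG, n = 3; black lines are mean and SD) for 12 of the called genes. In all 12 panels the groups do not overlap, with Ndufa12 showing the widest gap and Sdhc among the narrowest.

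Several complex IV and V subunits exist as isoforms from separate genes, so the log2 ratio of paired isoforms within a library was compared between the groups. It does not depend on the library total. Of 9 pairs 8 could be tested by an exact two-sided permutation test over samples, where the smallest possible p is 0.0286. In 5 pairs this p was reached, and adjusted over the 8 pairs it became 0.0457. That adjusted value depends on the number of pairs at the smallest p and would be higher with fewer of them. Pairs that share Atp5g1 are not independent of each other. Cox6a1, the form in most tissues, over Cox6a2 had log2 ratios of -4.62, -4.38, -4.51 and -4.31 in NTG 1 to 4 and -3.63, -3.87 and -3.83 in mNrf2-TG 17 to 19. The balance was thus shifted by 0.68 toward Cox6a1, a ratio 1.6 times that in NTG (exact permutation, adjusted p = 0.0457), while Cox6a1 itself had 86.3 ± 6.14 to 92.7 ± 7.39 CPM and was not called (Log2FC 0.10 ± 0.085, adjusted p = 0.444). Cox8a over Cox8b had ratios of -2.47, -2.28, -2.38 and -2.28 in NTG and -1.98, -1.84 and -2.04 in mNrf2-TG hearts, a shift of 0.40 with the same exact permutation p. Here again the muscle form fell and the widely expressed form was not called (Log2FC 0.09 ± 0.078, adjusted p = 0.441).

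Cox6b1 over the testis form Cox6b2 shifted by 1.80, also at the smallest exact permutation p. It rests on few reads: Cox6b2 gave 15, 24, 14 and 12 counts in NTG 1 to 4 and 4, 4 and 3 counts in mNrf2-TG 17 to 19 (Log2FC -2.14 ± 0.39, adjusted p = 0.00611). Cox4i1 over Cox4i2, the form of lung that responds to oxygen, had ratios of 7.75, 7.39, 7.65 and 7.11 in NTG and 8.2, 7.77 and 7.96 in mNrf2-TG hearts, and the difference of 0.50 did not pass the threshold (exact permutation p = 0.0571, adjusted 0.0762). Ndufa4 over Ndufa4l2 differed by 0.26 (exact permutation, adjusted p = 0.257), with 0.14 without NTG 4, 0.16 without mNrf2-TG 18 and 0.41 without mNrf2-TG 19. The pair Cox7a1 and Cox7a2 was not tested, since Cox7a2 had 0 to 6 counts per library.

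The c ring of complex V turns with the proton flow, and Atp5g1, Atp5g2 and Atp5g3 encode the same mature c subunit with different targeting sequences. Atp5g1 over Atp5g3 had log2 ratios of -1.06, -1.23, -1.04 and -1.09 in NTG and -1.55, -1.39 and -1.47 in mNrf2-TG hearts, and the shift of -0.36 was away from Atp5g1 (exact permutation, adjusted p = 0.0457). Against Atp5g2 the shift was -0.26, at the same p, with mNrf2-TG 18 closest to the NTG hearts; without that library it was -0.35 and without mNrf2-TG 17 it was -0.18. Atp5g2 over Atp5g3 differed by -0.10 (exact permutation, adjusted p = 0.196), with -0.05 without mNrf2-TG 18. No c subunit gene was called alone: Atp5g1 had 580.2 ± 34.8 to 504 ± 25.5 CPM (Log2FC -0.20 ± 0.071, adjusted p = 0.0781), and Atp5g3 had 1245 ± 34.9 to 1395 ± 64.7 CPM (Log2FC 0.16 ± 0.06, adjusted p = 0.0899). Of the 50-base stretches 38.3% in Atp5g2 and 10.2% in Atp5g1 occur in other genes.

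**Figure D4:**
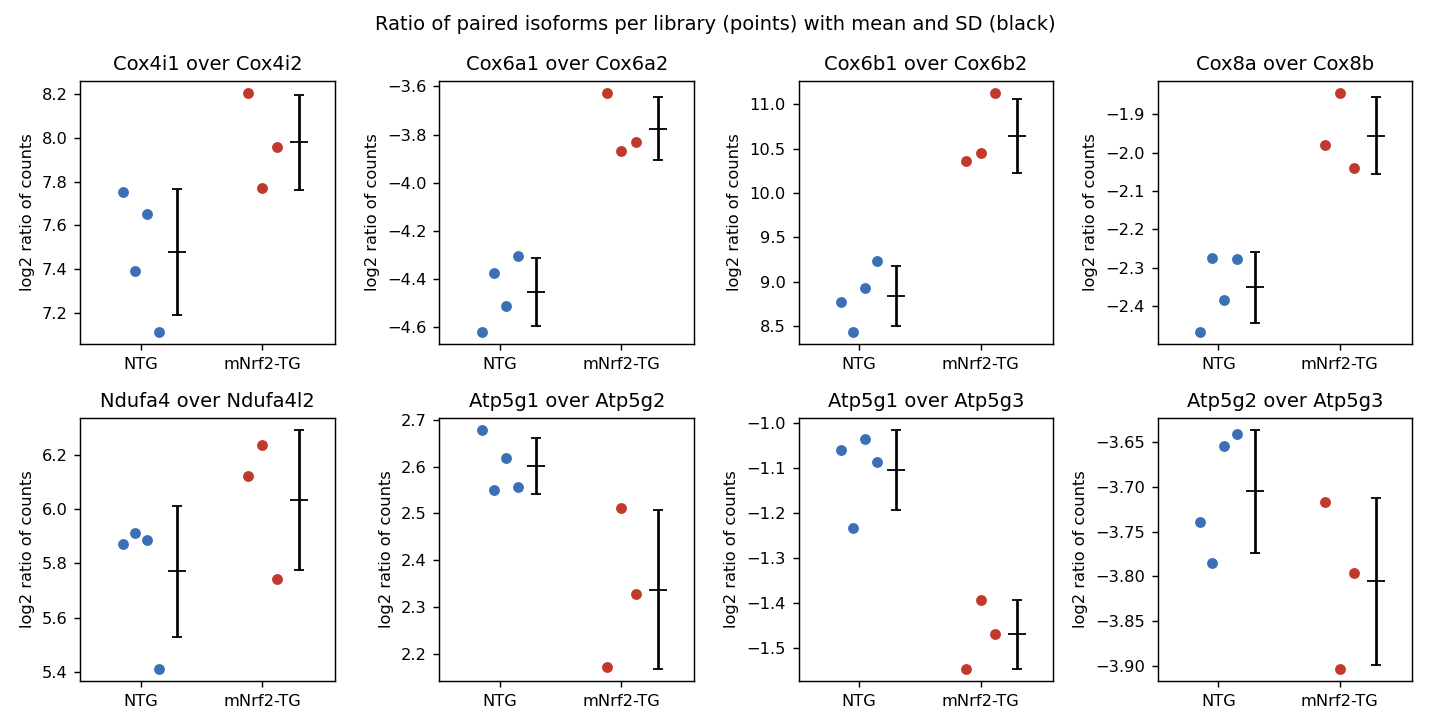
Log2 ratio of counts of 8 gene pairs in each library (y axis, log2 scale, own range per panel; blue NTG, n = 4; red mNrf2-TG, n = 3; black lines are mean and SD). The groups do not overlap for Cox4i1 over Cox4i2, Cox6a1 over Cox6a2, Cox6b1 over Cox6b2, Cox8a over Cox8b, Atp5g1 over Atp5g2 and Atp5g1 over Atp5g3.

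Complex V had 1 subunit higher and 5 lower of 17 (35.3% called, beside 34.3% of all genes at 100 CPM or more). Its median Log2FC was -0.08, and leaving out 1 library moved it between -0.12 and -0.0245. The summed level overlapped between the groups (20604 to 21848 CPM in NTG and 21144 to 21610 CPM in mNrf2-TG). The catalytic head made up most of that sum and was not called. Atp5b, the catalytic beta subunit, had 6419 ± 300.4 to 7205 ± 88.7 CPM (Log2FC 0.17 ± 0.059, adjusted p = 0.078), and Atp5a1, the alpha subunit beside it, had 5858 ± 162 to 5821 ± 185 CPM (Log2FC -0.01 ± 0.056, adjusted p = 0.93). All 3 subunits of the central stalk, which turns inside the head, were called. Atp5e gave 219, 229, 216 and 203 CPM in NTG 1 to 4 and 363, 289 and 376 CPM in mNrf2-TG 17 to 19. Atp5e, the epsilon subunit (chromosome 2, 174461072 to 174464105, minus strand), rose by 58.2% and was the only complex V gene to rise (Log2FC 0.66 ± 0.094, adjusted p = 0.00194). Atp5d gave 218, 218, 253 and 223 CPM in NTG 1 to 4 and 167, 164 and 183 CPM in mNrf2-TG 17 to 19. Atp5d, the delta subunit beside it in the stalk, fell by 24.7% (Log2FC -0.41 ± 0.079, adjusted p = 0.00784; chromosome 10, 80138632 to 80145818, plus strand), although NTG 3 stood above the other NTG hearts. Atp5c1, the gamma subunit that forms the shaft, went from 1806 ± 40.01 to 1475 ± 52.1 CPM (Log2FC -0.29 ± 0.058, adjusted p = 0.00852).

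The peripheral stalk holds the head still, and all 4 of its genes had negative Log2FC (median -0.24), of which 2 were called. Atp5h, subunit d, went from 670.2 ± 12.1 to 524 ± 13.6 CPM (Log2FC -0.35 ± 0.058, adjusted p = 0.00397), and 19.9% of its 50-base stretches occur in other genes. Atp5pb, subunit b, went from 1258 ± 38.5 to 1008 ± 57.6 CPM (Log2FC -0.32 ± 0.064, adjusted p = 0.00899), and 337 of its exon bases lie opposite Wdr77. Atp5j and Atp5o, which encodes the subunit that joins stalk and head, were not called (Log2FC -0.16 ± 0.061, adjusted p = 0.103 for Atp5j and Log2FC -0.08 ± 0.076, adjusted p = 0.53 for Atp5o). Of 5 small membrane subunits, Atp5md, which holds ATP synthase dimers together, was lower (220.4 ± 12 to 167 ± 16 CPM; Log2FC -0.40 ± 0.083, adjusted p = 0.0101). The 6 calls in complex V were kept whichever library was left out. Atpif1, the inhibitor of ATP hydrolysis by complex V and not one of the 93 genes, had a Log2FC of 0.36 (adjusted p = 0.0219), a call that was lost in 4 of the 7 fits without 1 library (those without NTG 1, NTG 4, mNrf2-TG 17 or mNrf2-TG 19, with adjusted p up to 0.0842).

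The 8 complex I assembly factors were 2 higher, 1 lower and 5 not called (37.5% called, beside 17.2% of all genes tested). Their median Log2FC was 0.09, beside -0.11 for the 81 subunits. Leaving out 1 library moved the median of the assembly factors between 0.04 (without mNrf2-TG 17) and 0.18 (without mNrf2-TG 18), with 0.15 without NTG 2 and 0.06 without NTG 3, and that of the subunits between -0.13 and -0.09. Assembly factor genes were far scarcer than the subunits, with a median of 15.7 RPKM in NTG hearts (CPM per kilobase of merged exons) beside 201 RPKM for complex I subunits. Ndufaf5 gave 27.2, 24.3, 24.7 and 30.03 CPM in NTG 1 to 4 and 52.6, 38.1 and 47.2 CPM in mNrf2-TG 17 to 19. Ndufaf5, which modifies the core subunit Ndufs7, thus rose by 73.1% (Log2FC 0.79 ± 0.12, adjusted p = 0.00315; chromosome 2, 140170649 to 140203689, plus strand). Ndufaf3 gave 28.2, 25.2, 35.4 and 31.8 CPM in NTG 1 to 4 and 54.5, 42.8 and 47.3 CPM in mNrf2-TG 17 to 19. Ndufaf3, which acts early on the matrix arm together with Ndufaf4, rose by 59.8% (Log2FC 0.68 ± 0.13, adjusted p = 0.00703; chromosome 9, 108565537 to 108567434, minus strand). In both genes the lowest transgenic heart, mNrf2-TG 18, was above the highest NTG heart, and both were called whichever library was left out.

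The partners of these factors were not called. Ndufaf4 had 84.8 ± 10.6 to 76.5 ± 4.36 CPM (Log2FC -0.15 ± 0.1, adjusted p = 0.337). Ndufaf8, which stabilizes Ndufaf5, had 15.8 ± 0.179 to 20.4 ± 2.88 CPM and just missed the threshold (Log2FC 0.36 ± 0.11, adjusted p = 0.0568), as did Ndufaf7, a methyltransferase (Log2FC 0.26 ± 0.079, adjusted p = 0.051). Ndufaf2 gave 31.8, 30.7, 23.6 and 29 CPM in NTG 1 to 4 and 22, 20.3 and 20.9 CPM in mNrf2-TG 17 to 19. Ndufaf2, a relative of Ndufa12 whose place Ndufa12 takes in the finished complex, was lower (Log2FC -0.45 ± 0.12, adjusted p = 0.0261), but it was called in only 1 of the 7 fits without 1 library, that without NTG 3 (otherwise up to 0.085), and 1955 of its 2978 exon bases lie opposite B230220B15Rik. Ndufaf1 and Ndufaf6 had Log2FC of -0.11 and -0.07 and were not called.

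Assembly factors named outside the rule were mixed in direction too. Of 43 tested for all 5 complexes, 7 were higher, 3 were lower and the median Log2FC was 0.02, beside 8.48% higher, 8.73% lower and a median of 0.00 over all genes tested. Cox18, which threads the mitochondrially made subunit Cox2 into the membrane, went from 7.05 ± 1.35 to 16.6 ± 3.53 CPM (Log2FC 1.23 ± 0.18, adjusted p = 0.00257), and Cox20, which escorts the same subunit, went from 72.3 ± 5.57 to 50.01 ± 1.87 CPM (Log2FC -0.53 ± 0.083, adjusted p = 0.0031). Cox10, which makes the precursor of heme A, was lower (Log2FC -0.44 ± 0.092, adjusted p = 0.0107). Nubpl, which supplies iron-sulfur clusters to complex I, went from 11.2 ± 1.04 to 19.4 ± 3.48 CPM (Log2FC 0.80 ± 0.15, adjusted p = 0.00636). Sdhaf4 (Log2FC 0.43 ± 0.1, adjusted p = 0.0188), a factor for Sdha, and Uqcc3 (Log2FC 0.40 ± 0.089, adjusted p = 0.015), a factor for complex III, were also higher. The remaining calls were Uqcc2, Cox15 and Cox19 upward and Uqcc1 downward.

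The mobile carriers of the chain lie outside the rule as well. Of 16 genes for coenzyme Q and cytochrome c, 3 were higher (Coq5, Coq8a and Coq8b) and 3 were lower, beside 17.2% called in either direction over all genes tested and 34.3% over those at 100 CPM or more. Coq10b, a coenzyme Q binding protein, went from 115 ± 13.9 to 57.8 ± 6.62 CPM (Log2FC -0.99 ± 0.11, adjusted p = 0.000638), and its paralog Coq10a from 319 ± 18.8 to 224 ± 18.7 CPM (Log2FC -0.51 ± 0.08, adjusted p = 0.00326). Cycs, the cytochrome c of somatic tissue, went from 560.2 ± 20.6 to 428 ± 24.8 CPM (Log2FC -0.39 ± 0.067, adjusted p = 0.00491). Coq8b, a kinase-like protein of coenzyme Q synthesis, was scarce and higher (7.04 ± 0.246 to 11.4 ± 1.62 CPM; Log2FC 0.70 ± 0.14, adjusted p = 0.00991).

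Per length, the subunits of NTG hearts ranged from 0.165 RPKM for Cox7b2 to 2780 RPKM for Cox6a2 by merged exons, whereas with the longest annotated transcript the highest was Atp5b (3350 RPKM). The medians by merged exons were 201 RPKM for complex I, 475 for complex II, 476 for complex III, 340 for complex IV and 203 for complex V. The order depends on the exon length taken: with the longest annotated transcript in place of all merged exons the medians were 283, 860, 604, 393 and 498 RPKM, so that complex V moved from beside complex I to above complex IV. The lowest of complex I was Ndufa6 (9.37 RPKM) and the highest Ndufb9 (649 RPKM). The highest of complex V by merged exons was Atp5a1 (1870 RPKM), and the other complex IV genes above 1000 RPKM were Cox8b, Cox6b1 and Cox7a1.

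Because subunit genes are short and have many processed copies in the genome, both properties were set beside the changes. Subunits with under 1000 exon bases (21 genes) had a median Log2FC of -0.07 with 1 higher and 7 lower, and those of 1000 bases or more (60 genes) had -0.13 with 6 higher and 19 lower. At a mean of 100 CPM or more, the shorter subunits were 1 higher and 6 lower of 16 (median -0.07), beside 5 higher and 10 lower of 40 such genes in all (median 0.01). The longer subunits at that level were 6 higher and 16 lower of 56 (median -0.12), beside 232 higher and 348 lower of 1694 genes (median -0.06). Of the 12 subunits with 10% or more of their 50-base stretches in other genes 6 were lower and 0 higher (median -0.23), and of the 69 others 20 were lower and 7 higher (median -0.10). What part either property had in the changes was not tested.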

How the data were processed

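RNA from 7 hearts, 1 library per mouse (4 NTG and 3 mNrf2-TG), was sequenced by the authors as single 50-base reads from stranded poly(A) libraries. Novoalign 2.08.01 could place a read at up to 50 positions, SamTranscriptomeParser of USeq kept the best of them, and reads were counted per gene; the methods name hg19 at one point and mm10 (GRCm38) at another, and neither the counting program nor the use of strand is given in the sources used here. The deposited table of raw counts, not normalized, was the only table tested. The authors' rlog values (log2 scale) and the authors' DESeq2 1.32.0 comparison (a mean normalized signal, log2 fold changes, a test statistic score and p-values) were deposited too and were not used.

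The table held 14665 entries. Keeping 1 per Entrez gene removed 24 and left 14641 genes, and the 14637 with a summed count above 1 were tested in edgeR 4.0.16 (R 4.3.3; TMM, quasi-likelihood, no covariates, Benjamini-Hochberg over all genes tested). Between 6534684 and 8405857 counts per library limit the precision for scarce genes. Pairs of isoforms were compared by exact permutation (Python 3.11.15, numpy 2.4.6). Gene positions and exon lengths come from GENCODE M21, and promoters (250 bases before to 50 after the start) from RefSeq GRCm38.p6. The edgeR step was tested on simulated data. It called 77% of genes given a log2 change of 0.6 (mean count 500 or more). With a change of 1.5 (mean count 100 or more) it called 100%. Of all its calls 2.21% were unchanged genes. Changes smaller than 0.6 were not simulated. The members and lists were chosen with earlier results of these data known.

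Named are the called members with the 30 smallest p-values, the isoform pairs, the catalytic or core subunits, Atpif1, Nfe2l2 and up to 10 called genes of other assembly and coenzyme Q genes. Ndufb3, Ndufa2, Ndufa8, Uqcrh, Cox5a, Ndufa11, Cox8b and Uqcrq (called beyond the 30), the remaining uncalled members and the calls listed without values were named after their values were seen. Alternatives were the DESeq2 1.42.0 Wald test, limma-voom (limma 3.58.1), other scalings, other filters and leaving out each library. The values of 1 member are not reported here; it is included in the counts, medians and sums.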

Additional observations from a re-analysis of the deposited data

Results flagged for a closer look

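In 3 of 70 groups of 4 NTG libraries tested, 1 library stood apart from the other 3 by more than Dixon's 95% critical value, which chance gives in about 1 of 20 groups. Atp5d had 253 CPM in NTG 3 and 218 to 223 CPM in the other NTG hearts (gap 0.854 of the range). Cox6a2 had 2040 CPM in NTG 1 and 1820 to 1850 CPM in the others (0.852). Ndufa4l2 had 22.9 CPM in NTG 4 and 15.8 to 16.8 CPM in the others (0.854). Atp5d and Cox6a2 were called lower also without the library that stood apart, and Ndufa4l2 was not called.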

How the results depend on the processing

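No paired analysis was possible because NTG and mNrf2-TG share no replicate number. Of the 38 called members 19 were called under all 13 alternatives, and none of the 38 changed sign under any of them. Members higher and lower numbered 11 and 32 with DESeq2, 10 and 31 with limma-voom, 9 and 28 with DESeq2 size factors, 12 and 22 with the library total alone (which moved the median of all genes by 0.03), 12 and 29 with filterByExpr and 9 and 29 without a filter. With the library total alone the complex II median was 0.035, the complex V median -0.0455, complex III had 2 calls and the assembly factors 5, as with filterByExpr. Longest-transcript lengths gave medians of 283, 860, 604, 393 and 498 RPKM for complexes I to V, 383 for all subunits and 20.3 for assembly factors. Restricting the background to abundant genes, chosen after seeing the data, gave 34.3%.

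Leaving out 1 library gave 1373 to 2950 calls over all genes (704 to 1471 higher, 669 to 1479 lower), 4 to 10 members higher and 16 to 30 lower, and 20 to 34 subunits called: 8 to 15 in complex I, 0 to 1 in II, 2 to 4 in III and 3 to 8 in IV. The fewest lower members came without mNrf2-TG 18 (16) and the fewest higher without mNrf2-TG 17 (4). The complex II median ran from -0.022 to 0.037 and that of complex V from -0.12 to -0.025, and the Atp5g1 over Atp5g2 difference from -0.35 to -0.18. Depth limits Cox6b2, Cox7a2 and Cox7b2. The cause of these differences was not tested.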
